A study of Homo sapiens with 6 samples.

Results

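The genes described here are surface markers of colon epithelium and of its stem cells: EPCAM, CD44, PROM1, ALCAM, CEACAM1, CEACAM5, CEACAM6, LGR5 and LGR4. They were taken from the deposited table by gene name. All 9 were found, among 58735 genes, and 3 of them (EPCAM, CD44 and LGR4) reached the mean of 1 FPKM over the 6 libraries that was required for a test. FPKM counts fragments per kilobase of a gene's exons after scaling for library size, so it allows a rough comparison of levels between genes. The length is that of all annotated exons of a gene, not of the isoforms expressed, and ratios between genes depend on it. RNA was sequenced from SW480, a human line established from a colorectal cancer and labelled wild type in both groups. The 6 libraries fall into 2 groups: 3 came from cells given a negative control siRNA (si_NC) and 3 from cells given an siRNA against ITGB4 (si_ITGB4), and the series calls the 3 of a group biological replicates. The siRNA sequences, their number, the dose and the time after transfection are not given in the sources used here, and all values come from a single cell line.

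EPCAM and CD44 are adhesion molecules: EPCAM joins epithelial cells to one another, and CD44 binds the matrix polymer hyaluronan and is tied to the actin cortex by ezrin, radixin and moesin. The CEACAM proteins are immunoglobulin-like adhesion molecules, of which CEACAM5 is the carcinoembryonic antigen followed in the blood of patients with colorectal cancer. LGR5 marks the stem cells at the base of the intestinal crypt, and with LGR4 it binds R-spondins, which keep the ligases ZNRF3 and RNF43 from removing Wnt receptors. PROM1 (CD133), CD44 and ALCAM (CD166) have been used to sort tumour-initiating cells from colorectal cancers.

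The libraries held 13715266 to 15496274 reads, recovered from FPKM and gene length, and 24284 to 24968 genes had a value above 0. ITGB4, the siRNA target, measured 69.3 ± 5.26 FPKM in si_NC and 39.0 ± 1.80 in si_ITGB4 libraries (SD, n = 3 in both), and it fell by 43.7% (limma adjusted p = 0.0148). The call was lost with the replicate block (adjusted p = 0.0564), without the filter (0.0618) and without control siRNA replicate 3 or any 1 of the ITGB4 siRNA libraries (0.0699 to 0.137), with log2 fold changes of -0.85 to -0.79. All 10 general epithelial genes passed the filter, with KRT18 at 567.5 FPKM, KRT8 at 486.0 and KRT19 at 366.1. Of 22 genes of differentiated colon epithelium 1 passed, the intestinal transcription factor CDX2 at 21.3 FPKM, and 7 had no read. Of the markers of other cell types, 1 of 8 for fibroblasts (FBLN1, 1.15 FPKM), 1 of 6 for endothelium (ESAM, 1.002 FPKM) and 1 of 8 for leukocytes (CD74, 2.21 FPKM) passed. The summed level of those lists was 1.53 to 2.26 FPKM with control siRNA and 1.56 to 1.72 with ITGB4 siRNA for fibroblasts, 1.12 to 1.32 and 0.889 to 1.26 for endothelium, and 3.29 to 3.63 and 3.003 to 3.45 for leukocytes. COL1A2, COL3A1, DCN, LUM, CDH5 and KDR had no read, and PTPRC, the pan-leukocyte gene, had 1 read in the 6 libraries.

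The 9 markers differed widely in level in SW480. EPCAM was by far the most abundant at 97.1 ± 2.62 FPKM (SD, n = 6, both groups together) and CD44 followed at 17.1 ± 0.929 FPKM (SD, n = 6). LGR4 was low at 1.30 ± 0.142 FPKM and CEACAM1 lower at 0.813 ± 0.229 FPKM (SD, n = 6 each). ALCAM was close to the limit of the data at 0.0752 ± 0.0263 FPKM (SD, n = 6), with 48 reads in all. LGR5, PROM1 and CEACAM6 had 2, 2 and 1 reads among 89280994, and CEACAM5 had none. With ITGB4 siRNA 0 of the 3 tested markers passed the limma test. In a bulk library fewer cells carrying a transcript and less of it per cell cannot be told apart.

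**Figure D1:**
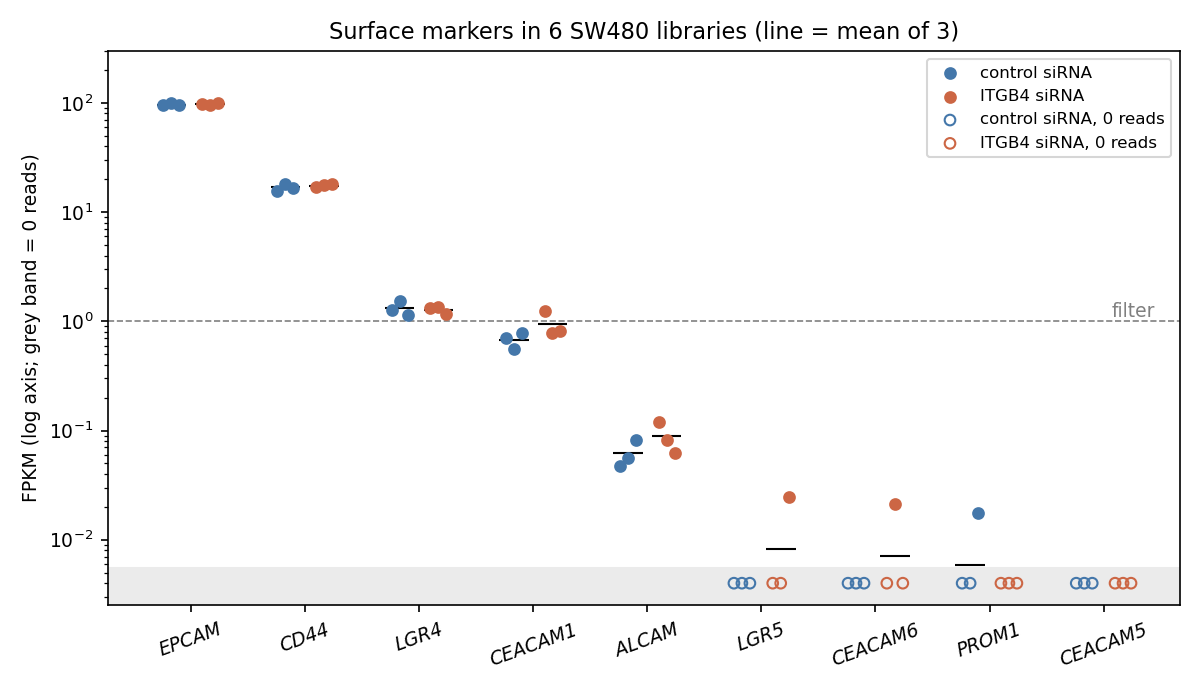
FPKM (log axis) of each of the 9 markers in the 3 control siRNA and the 3 ITGB4 siRNA libraries. Points are libraries, short lines are the means of 3, the dashed line is the filter at 1 FPKM, and open points in the grey band are libraries with 0 reads. EPCAM, CD44 and LGR4 lie above the filter on average, and the groups overlap in each of them.

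Read in order of level, neighbours were set apart where their ranges over the 6 libraries did not overlap, without a test. EPCAM was 5.67 times CD44, and CD44 was 13.2 times LGR4, with no overlap in either step. EPCAM had 21913 reads over 2519 bases of exon and CD44 15369 over 10004, so the first ratio depends on these lengths. LGR4 was 1.59 times CEACAM1, but the ranges overlapped (1.14 to 1.53 and 0.562 to 1.24 FPKM), so these neighbours were not separated. CEACAM1 was 10.8 times ALCAM with no overlap. ALCAM was above LGR5, CEACAM6, PROM1 and CEACAM5 in every library, and those last 4 could not be ordered. Among 19951 protein-coding genes, EPCAM ranked 314 and CD44 2715 by mean FPKM. LGR4 was above 49.1% of them, CEACAM1 above 45.5% and ALCAM above 32.0%. For scale, 53.1% of protein-coding genes passed the filter, with a median of 7.79 FPKM, and 17.2% had no read at all, as CEACAM5 did.

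The members differ in the sequence before their start sites, which is shown here for markers with few or no reads. RefSeq promoter entries (GRCh38.p14) were held for 7 of the 9 members, without EPCAM and LGR5. Over the 250 bases before the start, the CG pair, the site of DNA methylation, occurred 20 times in ALCAM, 15 times in CD44 and 14 times in LGR4. PROM1 has 4 entries with 5, 13, 17 and 26. In GENCODE v29 all 250 bases of CD44 and of the PROM1 entries with 13 and 17 are annotated as exon, as are 167 in LGR4, 109 in CEACAM6, 41 in CEACAM5 and 28 in CEACAM1, so these counts are not all of sequence outside exons. The start of the LGR4 entry was found in none of that gene's GENCODE transcripts. The CEACAM genes held few: 5 in CEACAM6, 2 in CEACAM5 and 1 in CEACAM1, where the median of 35116 promoters was 11 and the quartiles were 3 and 23. ALCAM and every PROM1 entry had more CG pairs than CEACAM1 and fewer reads, while CD44 and LGR4 had more CG pairs and more reads. Which start sites SW480 uses was not measured, and a link between the count and the levels was not tested. DNA methylation was not measured. Stretches of 100 bases from ALCAM (chr3:105366809-105366908, plus strand), PROM1 (chr4:16083733-16083832, minus strand), CEACAM1 (chr19:42528510-42528609, minus strand) and CEACAM5 (chr19:41708485-41708584, plus strand) are given 5′ to 3′, with every CG in capitals.
ALCAM: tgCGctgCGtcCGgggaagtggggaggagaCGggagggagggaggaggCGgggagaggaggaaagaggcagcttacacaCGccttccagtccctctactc
PROM1: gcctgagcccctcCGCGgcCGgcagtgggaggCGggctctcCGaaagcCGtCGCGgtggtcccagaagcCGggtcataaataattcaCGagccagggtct
CEACAM1: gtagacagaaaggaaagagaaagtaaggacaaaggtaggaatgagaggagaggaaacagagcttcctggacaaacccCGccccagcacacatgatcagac
CEACAM5: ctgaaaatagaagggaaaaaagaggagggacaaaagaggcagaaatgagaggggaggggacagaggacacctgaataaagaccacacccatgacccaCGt
ALCAM held 6 and PROM1 10 CG pairs in these stretches, against 1 each in CEACAM1 and CEACAM5. The PROM1 stretch shown is from its entry with 26 CG pairs. The stretch from its entry with 5 (chr4:16076119-16076218, minus strand) held 3. Over the full 250 bases CEACAM5 was 71.2% identical to CEACAM1 and 77.6% to CEACAM6, against 150 identical bases of 250 with the unrelated ALCAM.

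Among the matched members, the E-box CACGTG, a palindrome that reads alike on both strands, was found only in CEACAM5 and CEACAM6, and 6.34% of all promoters of that length hold it. The 30 bases around it are at chr19:41708568-41708597 in CEACAM5 and chr19:41755473-41755502 in CEACAM6, both on the plus strand, with the E-box in capitals.
CEACAM5: acacccatgaccCACGTGatgctgagaagt
CEACAM6: gcacccatgaccCACGTGaccctgggaaat
CTTTGAT, a form of the TCF/LEF motif, was searched on both strands and found in 1 of the 4 PROM1 entries and in no other matched member, against 2.26% of all promoters. The PROM1 entry that holds it is the one with 5 CG pairs, not the one shown above, and it has no CACGTG. These matches describe the sequence, and binding was not measured.

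The comparison of the siRNA groups asks whether lowering ITGB4 altered the transcripts of these surface proteins. The series title places ITGB4 upstream of Ezrin and of Wnt/β-catenin signalling, of which LGR5 and CD44 are known targets. Of the 3 tested markers limma called 0, where 0.0466% of all 12871 tested genes were called. At an unadjusted p under 0.05 there were also 0 of 3, where all tested genes gave 5.83%, and the groups did not overlap in 0 of 3, where all tested genes gave 11.1%. Limma-voom on the recovered reads also called 0 of 3. The median log2 fold change of the 3 was 0.018, and that of all tested genes was -0.003. With 3 members, these counts say little about the set. The exact permutation test used for single genes cannot give a p under 0.1 with 3 against 3 libraries.

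EPCAM (ENSG00000119888; GRCh38 chromosome 2, 47345158 to 47387601, plus strand), the epithelial adhesion molecule, measured 94.8, 100.1 and 94.8 FPKM in control siRNA replicates 1, 2 and 3. It measured 97.4, 95.3 and 100.4 FPKM in ITGB4 siRNA replicates 1, 2 and 3. The groups overlapped, and each group held values at both ends of the joint range. The means were 96.5 ± 3.06 and 97.7 ± 2.59 FPKM (SD, n = 3 each), a difference of 1.23%. Without control siRNA replicate 2 the difference was 3.12% and the groups did not overlap. The log2 fold change was 0.02 (SE 0.0424, limma adjusted p = 0.998), and the exact permutation test gave p = 0.5. Its 95% interval ran from -0.08 to 0.12, which is -5.60% to 8.54% on the scale of FPKM + 1, so a change of the size seen for ITGB4 lies outside it. With 3400 to 3940 reads per library, counting error was 1.65% and the spread over the 6 libraries was 2.70%.

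CD44 (ENSG00000026508; chromosome 11, 35138870 to 35232402, plus strand), the hyaluronan receptor, measured 15.8, 18.1 and 16.5 FPKM with control siRNA. With ITGB4 siRNA it measured 16.8, 17.7 and 17.9 FPKM. All 3 ITGB4 siRNA libraries lay within the control range. The means were 16.8 ± 1.21 and 17.5 ± 0.585 FPKM (SD, n = 3 each), a difference of 4.09%. The log2 fold change was 0.06 (SE 0.0618, 95% interval -0.09 to 0.20, limma adjusted p = 0.998), and the exact permutation test gave p = 0.5. The interval corresponds to -6.07% to 15.1% on the scale of FPKM + 1. The difference of the means was 0.95% without control siRNA replicate 1 and 8.35% without control siRNA replicate 2, the highest library, and without the latter the groups did not overlap. The spread of 5.42% over the libraries was above the 1.98% of counting error. CD44 is spliced into standard and variant isoforms, and GENCODE v29 lists 39 transcripts for it. The table holds 1 value per gene over 10004 bases of exon, so isoforms were not compared. Of those bases 84 are shared with the antisense gene CD44-AS1, which had 82 reads against 15369 for CD44.

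LGR4 (ENSG00000205213; chromosome 11, 27365961 to 27472775, minus strand), the R-spondin receptor of many epithelia, measured 1.28, 1.53 and 1.14 FPKM in the si_NC libraries and 1.32, 1.34 and 1.16 in the si_ITGB4 libraries. The ITGB4 siRNA values again fell inside the control range. The means were 1.32 ± 0.200 and 1.28 ± 0.0968 FPKM (SD, n = 3 each), a difference of -3.10%. Its log2 fold change was -0.02 (SE 0.105, 95% interval -0.27 to 0.23, limma adjusted p = 0.998), with an exact permutation p of 0.9. The interval, -17.2% to 16.9% on the scale of FPKM + 1, is the widest of the 3 tested markers. It rests on 110 to 144 reads per library, for which counting error alone is 9.04%, close to the measured spread of 10.96%. At so low a level the FPKM + 1 scale understates a change in FPKM, so in FPKM the interval is wider.

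**Figure D2:**
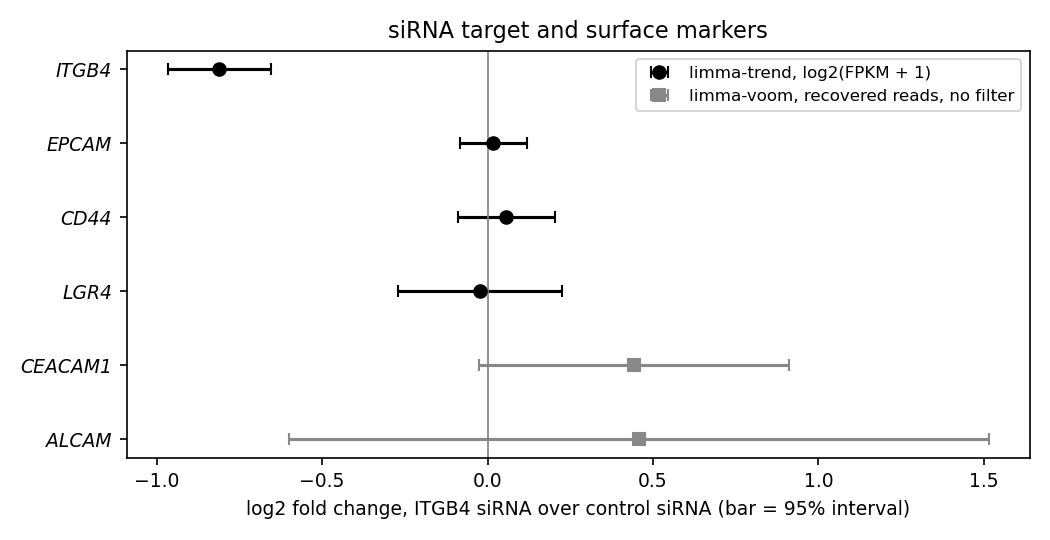
Log2 fold change (ITGB4 siRNA over control siRNA) with its 95% interval for ITGB4 and 5 markers. Black points are limma-trend values on log2(FPKM + 1). Grey squares are limma-voom values on recovered reads, given for CEACAM1 and ALCAM, which did not reach the filter. The intervals of all 5 markers include 0, and that of ITGB4 (-0.97 to -0.66) does not.

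CEACAM1 (ENSG00000079385; chromosome 19, 42507304 to 42561234, minus strand), a transmembrane protein, did not pass the filter. It had 57, 46 and 66 reads with control siRNA and 95, 66 and 70 with ITGB4 siRNA. These correspond to 0.697, 0.562 and 0.784 FPKM and to 1.24, 0.782 and 0.814 FPKM. The highest control library was level with the lowest ITGB4 siRNA library, so the groups overlapped by a narrow margin, and ITGB4 siRNA replicate 1 stood above the rest. The means were 0.681 ± 0.112 and 0.946 ± 0.257 FPKM (SD, n = 3 each), 38.9% higher with ITGB4 siRNA, with an exact permutation p of 0.2. Leaving out ITGB4 siRNA replicate 1 brought the difference to 17.2%, and leaving out replicate 2 brought it to 50.9%. Limma-voom without a filter gave a log2 fold change of 0.44 with a 95% interval of -0.03 to 0.91 (adjusted p = 0.877), which leaves room both for no difference and for a rise larger than the one measured. LIPE-AS1, an antisense gene with 27 reads, shares 185 exon bases with CEACAM1.

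ALCAM (ENSG00000170017; chromosome 3, 105366909 to 105576900, plus strand), an adhesion molecule that binds CD6 on T cells, had 5, 6 and 9 reads with control siRNA and 12, 9 and 7 with ITGB4 siRNA. The counts overlapped. The means were 0.0619 ± 0.0182 and 0.0884 ± 0.0296 FPKM (SD, n = 3 each), 42.9% higher with ITGB4 siRNA (exact permutation p = 0.3). The spread of 35.0% over the libraries was no larger than the counting error of 35.4%, so this difference could not be told from counting error.

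The stem cell markers LGR5 and PROM1 were at the floor of the data. LGR5 (ENSG00000139292; chromosome 12, 71439770 to 71586310, plus strand) had 2 reads, both in ITGB4 siRNA replicate 3. PROM1 (ENSG00000007062; chromosome 4, 15963076 to 16084378, minus strand) had 2 reads, both in control siRNA replicate 3. For each of them the other 5 libraries had none. The exact 95% Poisson interval was 0.00104 to 0.0309 FPKM for LGR5 with ITGB4 siRNA and 0.000727 to 0.0217 FPKM for PROM1 with control siRNA. No fold change is given for them, and such intervals and limits cover counting error only.

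CEACAM5 (ENSG00000105388; chromosome 19, 41708585 to 41729798, plus strand), the carcinoembryonic antigen, had 0 reads in all 6 libraries, which allows up to 3 reads over the 6, or 0.01003 FPKM. CEACAM6 (ENSG00000086548; chromosome 19, 41750977 to 41772208, plus strand), its close relative, had 1 read, in ITGB4 siRNA replicate 2. Both are anchored in the membrane by a lipid, unlike CEACAM1. Their coding sequences are alike, and reads from a shared stretch may be split or dropped in counting. Of the 50-base words in their annotated transcripts, 83.7% in CEACAM5, 93.0% in CEACAM6 and 95.7% in CEACAM1 occur in no other gene. The counting tool is not given, and how reads of shared stretches were counted was not tested. The words CEACAM5 shares are mostly those of AC243967.1, an overlapping gene that also had 0 reads. Summed over the 3 genes, read counts scaled to RPM were 3.77 ± 0.627 in si_NC and 5.28 ± 1.43 in si_ITGB4 libraries (SD, n = 3 each). The exact permutation p was then 0.1, against 0.2 for CEACAM1 alone. The single CEACAM6 read was what parted the groups.

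Within their gene families the markers were not the most abundant members in every case. LGR6, the remaining R-spondin receptor of the LGR family, measured 4.33 ± 0.470 FPKM (SD, n = 6), 3.34 times LGR4, and its lowest library (3.49) was above the highest of LGR4 (1.53). Of 12 CEACAM genes in the table, 6 had 0 reads and 3 had 1 to 11 reads. CEACAM21 was the most abundant at 3.94 ± 0.413 FPKM (SD, n = 6), ahead of CEACAM1, and differed by -0.04 on the log2 scale (limma adjusted p = 0.998), and it was the only tested gene among the 9 CEACAM genes that are not markers here. CEACAM19 was at 0.716 ± 0.155 (SD, n = 6). PROM2, the relative of PROM1, had 3 reads.

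**Figure D3:**
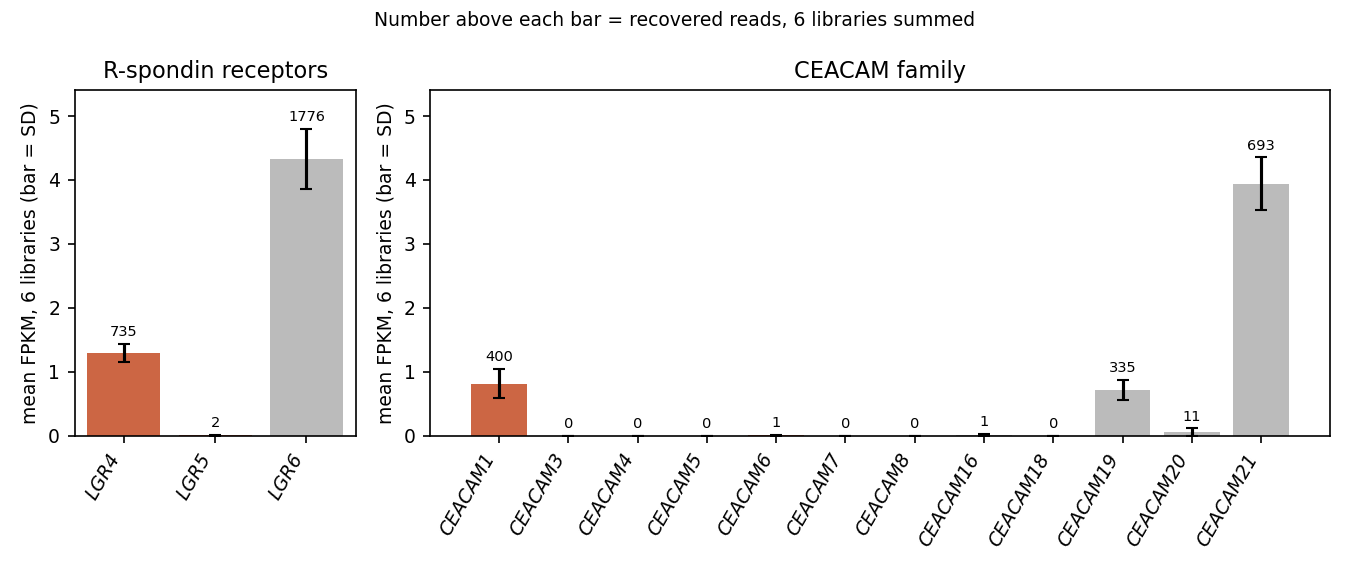
Mean FPKM over the 6 libraries, with the SD as error bar, of the R-spondin receptors (left) and of 12 CEACAM genes (right). Orange bars are markers described here, grey bars are their relatives, and the number above each bar is the sum of recovered reads. LGR6 and CEACAM21 stand above the markers of their family.

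The 6 lists of related genes set beside the markers held 86 genes. Of these 56 were tested, and limma called 0, as did limma-voom on the same genes. At an unadjusted p under 0.05 limma had 2 higher and 5 lower (12.5%, against 5.83% of all tested genes), and limma-voom had 5 in all. The groups did not overlap in 10 (17.9%, against 11.1%). The lists were chosen with earlier results of these data known. They are described by counts only and were not tested as sets.

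Of 16 partners and cleaving enzymes of EPCAM 15 were tested, with 8 log2 fold changes above 0 and 7 below (median 0.015). CD9, a tetraspanin, measured 118.8 FPKM and ST14, the protease matriptase, 66.0, and neither passed. FHL2, a cofactor that joins the cleaved EPCAM tail in the nucleus, went from 8.24 ± 0.162 to 9.55 ± 0.121 FPKM (SD, n = 3 each) with no overlap. Its log2 fold change was 0.19 (SE 0.0456, limma adjusted p = 0.515). ADAM17, which sheds the outer part of EPCAM, had -0.12 and NCSTN, a subunit of γ-secretase, 0.07.

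Of 17 ligands, partners and splicing factors of CD44 12 were tested, 8 above 0 and 4 below (median 0.041). Of the 3 linkers to actin none passed, with a log2 fold change of -0.18 for EZR, -0.36 for RDX and 0.05 for MSN. In si_NC and si_ITGB4 libraries EZR measured 107.5 ± 2.44 and 95.03 ± 1.59 FPKM, and RDX 14.1 ± 1.72 and 10.7 ± 0.719 (SD, n = 3 each). The limma adjusted p was 0.451 for EZR and 0.583 for RDX, and the groups did not overlap in either. They did not overlap in MSN either, which was higher with ITGB4 siRNA. MSN measured 119.7 ± 0.598 and 124.0 ± 0.748 FPKM (SD, n = 3 each, limma adjusted p = 0.993). RDX did not pass in limma-voom with the filter (adjusted p = 0.141). It passed in limma-voom without the filter (adjusted p = 0.0253), a fit added after seeing the data. HAS2, which makes hyaluronan, went from 1.04 ± 0.0450 to 1.55 ± 0.188 FPKM (SD, n = 3 each) a difference of 0.32 on the log2(FPKM + 1) scale (limma adjusted p = 0.729) and of 0.561 in limma-voom, where it did not pass either. The ligand genes SPP1 and SRGN had 0 reads.

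Of 12 genes of the R-spondin pathway 8 were tested, 4 above 0 and 4 below (median 0.014). All 4 R-spondin genes had 0 reads, the ligands of LGR4 and LGR6. The ligase ZNRF3 measured 20.1 ± 0.278 and 18.6 ± 0.484 FPKM (SD, n = 3 each) with no overlap and differed by -0.10 on the log2 scale (limma adjusted p = 0.852). RNF43 had 0.09, and the abundant members SDC4, a syndecan, and IQGAP1, a scaffold protein, had 0.08 and 0.06.

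Of 17 other intestinal stem cell genes 12 were tested, 3 above 0 and 9 below (median -0.061). While LGR5 was at the floor, other genes of the crypt base were abundant: AXIN2, a Wnt feedback gene, measured 122.9 FPKM, SOX9 65.2 and ASCL2 47.5, where OLFM4 and SMOC2 had 0 reads. SOX9 measured 67.7 ± 0.977 and 62.7 ± 1.53 FPKM (SD, n = 3 each) with no overlap, -0.11 on the log2 scale (limma adjusted p = 0.806). AXIN2 measured 125.4 ± 5.175 and 120.3 ± 1.21 FPKM (SD, n = 3 each), also with no overlap. Its log2 fold change was -0.06 (limma adjusted p = 0.998). ASCL2 had 0.23 with overlapping groups (limma adjusted p = 0.998). Leaving out si_NC replicate 1 gave 0.386, leaving out si_NC replicate 2 gave 0.102 and leaving out si_ITGB4 replicate 1 gave 0.123, and it passed in none of them. SLC12A2, an ion transporter, had -0.10. Of 15 other cancer stem cell markers 8 were tested, 4 above 0 and 4 below (median -0.057). ITGA6, which pairs with ITGB4, measured 63.2 ± 4.89 and 52.2 ± 2.25 FPKM (SD, n = 3 each) with no overlap. Its log2 fold change was -0.27 (limma adjusted p = 0.515), and it did not pass in limma-voom with the filter (adjusted p = 0.122). It passed in limma-voom without the filter (adjusted p = 0.00426), the fit added after seeing the data. ITGB1, a further integrin subunit, had 0.07, the chemokine receptor CXCR4 -0.15 and the transcription factor KLF4 -0.14. ALDH1A1 had 0 reads.

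**Figure D4:**
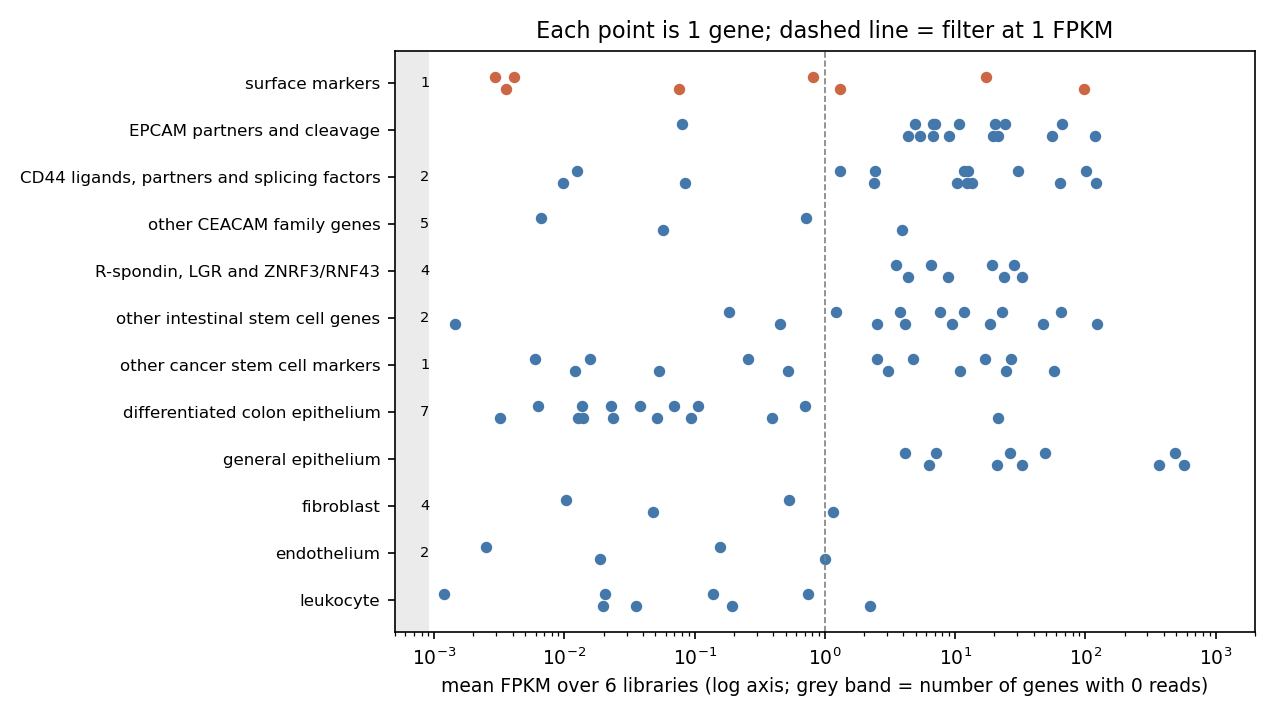
Mean FPKM over the 6 libraries (log axis) of each gene of the markers and of the lists set beside them. Each point is a gene, the dashed line is the filter at 1 FPKM, and the grey band gives the number of genes with 0 reads. Of the 9 markers 6 lie under the filter, where all 10 general epithelial genes lie above it and 21 of 22 genes of differentiated colon epithelium lie under it.

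Across the 6 libraries the genes whose log2(FPKM + 1) ran most like that of CD44, among 10591 protein-coding genes, were YES1 (Pearson r = 0.998), ZNF148 (0.994) and TRIM2 (0.993). For EPCAM they were TPR (0.991), WSB1 (0.982) and ZFP90 (0.977). Values of 0.95 or more were reached by 103 genes with CD44 and by 13 with EPCAM. The points are 6 libraries that share 1 cell line and 1 processing, and the best of so many genes is high by selection, so these are a description without a test.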

How the data were processed

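The deposited table gives FPKM computed by the authors for 58735 genes of GRCh38 in 6 libraries made from poly-T captured RNA, per the labels. DESeq2 and edgeR are listed, with no role, in the submitters' processing notes. The aligner, the counting tool and the strandedness are not given in the sources used here, so reads of overlapping antisense genes cannot be assigned. Groups and replicate numbers were read from the sample titles. The authors' gene length equalled the exon union of GENCODE v29 for 99.98% of genes. Reads were recovered as FPKM times length, divided by a value for 1 read fitted in each library. That fit started from the smallest product above 0, taken as 1 read. On this scale 100% of values above 0 were whole at a tolerance of 0.01. The median-of-ratios factor of the deposited FPKM was 1.003155 in every library, so that rescaling left ratios between libraries as they were.

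Genes with a mean of at least 1 FPKM (12871) were fitted as log2(FPKM + 1) with limma 3.58.1 (limma-trend, R 4.3.3), two-sided, with Benjamini-Hochberg adjustment over all of them and calls at an adjusted p under 0.05. A fold change on this scale understates the change of low genes. Each marker's mean FPKM was put to an exact permutation test, two-sided. Intervals are 95% confidence intervals. The recovered reads were fitted with limma-voom, and the fit without the filter was added after seeing the data. The limma-trend fit was run on simulated reads with planted changes, as a check of the code only. Python 3.11.15 with pandas 2.3.3 and scipy 1.17.1 did the rest. Promoters were aligned with Biopython 1.88 and identity is given over 250 bases. The stretches shown avoid bases annotated as exon, except the 30-base sites.

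The members and the gene lists were chosen with earlier results of these data known. Named genes are the 9 markers, ITGB4, up to 3 tested genes per list with the smallest p and up to 2 with the highest FPKM, and the 3 most correlated genes for 2 members. Genes named for having few or no reads, the family members and the overlapping antisense genes were chosen after their values were seen. Alternatives were the pseudocount, the filter, the scaling, robust moderation, the replicate number as a block and leaving out each library.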

Additional observations from a re-analysis of the deposited data

How the results depend on the processing

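Limma called 0 markers, and found 0 at an unadjusted p under 0.05, in every alternative run, with 2 to 8 markers tested. The siRNA target and the count of called genes were less stable. Of 6 called genes, 0 were left without the filter (1356 at an unadjusted p under 0.05), where ITGB4 had -0.81 with an adjusted p of 0.0618. Limma-voom on recovered reads called 26 (5 shared with the 6), and without the filter 50 (5 shared). Leaving out each library in turn gave 0 to 7 called genes and -0.87 to -0.76 for ITGB4 (limma adjusted p 0.0317 to 0.137): 0 genes were called without ITGB4 siRNA replicate 1, 2 or 3, and 3 without control siRNA replicate 3. The cause was not tested. The median log2 fold change of the tested markers was 0.005 to 0.044 with a library left out, and 0.255 in limma-voom without the filter, where 8 markers rather than 3 were tested.

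The groups share replicate numbers, but no label says what a number means, so the main fit did not treat them as pairs. Deviations of same-numbered libraries correlated at 0.173, 0.102 and -0.01, and those of different-numbered libraries at -0.174 to 0.086. These values do not settle whether the numbers are pairs. With the replicate block limma called 0 genes, with 1064 at an unadjusted p under 0.05 against 750 in the main fit. ITGB4 then had -0.81 (limma adjusted p = 0.0564). No marker was called with the block.

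Small fold changes turned sign when a library was left out: EPCAM ran from -0.002 (without ITGB4 siRNA replicate 3) to 0.044, and LGR4 from -0.079 to 0.043 (without control siRNA replicate 2; 0.013 without ITGB4 siRNA replicate 3). ST14 ran from -0.097 to 0.044, CEACAM21 from -0.092 to 0.062, KRT19 from -0.12 to 0.006, ESAM from -0.13 to 0.02, CD74 from -0.054 to 0.087 and KRT8 from -0.046 to 0.066 (-0.005 and -0.009 between). None of these passed the test in any alternative. Depth limits the low markers: ALCAM, LGR5, PROM1 and CEACAM6 had 1 to 48 reads in all, and CEACAM5 had 0.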
